A study of Bos taurus with 12 samples.

Results

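The trend over the 3 upper progesterone classes was followed across all genes in 9 of the 12 libraries of a study of the endometrium, the lining of the uterus, in grazing dairy cows (Bos taurus). The 9 libraries were picked by their class labels, and which classes to follow was chosen with earlier results of these data known. They were 3 of the low class (rank 1), 3 of the high class (rank 2) and 3 of the very high class (rank 3), and the 3 libraries of the very low class (below 0.25 ng/ml) were left out. All were endometrial biopsies, sorted by the progesterone level recorded on day 4 of the cycle, with no other treatment, age or breed given. By their labels, low means below 1.4 (written in mg/dl), high means above 2.5 ng/ml, and very high means above 20 ng/ml. Sample titles call these classes LPP4, HPP4 and SO, and what the letters stand for, or whether the classes differ in anything beside progesterone, is not given in the sources used here. Nothing states that the replicates of a class are separate cows. The spread behind every p-value is therefore that of the samples, and it may be technical.

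Progesterone is made by the corpus luteum, the gland that forms in the ovary after ovulation, and it acts on the uterus through the nuclear progesterone receptor. In the days after estrus it takes over from estrogen, ends the estrogen-driven proliferation of the uterine epithelium and switches on the secretions that feed an early embryo. The uterine wall below the endometrium is smooth muscle, which also lines the larger vessels, and neutrophils enter the lining around estrus.

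Each gene was described by 4 quantities on the log2 scale. The low-to-high step is the difference of the high from the low class, and the high-to-very-high step is that of the very high from the high class. The slope per class is the mean of these steps, so the high class adds to its error but not to its size. Curvature is the second step minus the first and tests whether they are equal. The step share is the first step as a part of the whole change from low to very high. It is 0.5 for even steps and 1 for a change that is complete at the high class. A share of 0.3 to 0.7 is called graded here, and one of 0.8 to 1.2 a first-step jump. Levels are CPM (counts scaled to library size), and the 3 values of a class are in the order of its replicates 1 to 3.

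The 9 libraries held 6952815 to 8379489 counted reads, and 10820 of 13930 gene symbols had enough to be tested. Low libraries resembled each other less than the rest did. Spearman correlations over genes were 0.879 to 0.940 within the low class, 0.956 to 0.971 within the high class and 0.960 to 0.976 within the very high class, and high against very high libraries reached 0.959 to 0.976. On the first principal component, with 44.3% of the variance, the low libraries lay at -79.4 to -32.9 and the other 6 at 10.9 to 47.6, with no order between high and very high. The median within-class SD of log2 CPM was 0.385 in the low, 0.250 in the high and 0.237 in the very high class.

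Most of what differed along the 3 classes was already different between low and high. Of 15 tested smooth muscle markers 13 rose, while 4 of 8 neutrophil markers, 10 of 30 genes of mitosis and 2 of 15 epithelial markers fell. A smaller set of 36 falling genes, among them MSLN, LTF and DLGAP5, was graded on the log2 scale. On linear CPM graded genes were 8.52% of those called, in place of 18.8%, and the step shares of MSLN, LTF and DLGAP5 were 0.896, 0.819 and 0.806. The slope passed an adjusted p of 0.05 in 223 genes (2.06% of those tested, edgeR quasi-likelihood test with Benjamini-Hochberg adjustment), 108 rising (0.998%) and 115 falling (1.06%). The low-to-high step passed in 143 genes (1.32%), 99 rising (0.915%) and 44 falling (0.407%), and 120 of them also passed on the slope. No gene (0%) passed in the high-to-very-high step by edgeR, and none did by DESeq2 or limma-voom. For that step 209 genes had an unadjusted p under 0.05 by edgeR, 105 positive and 104 negative, where 5% of the tested genes would be 541. That fit uses 1 spread for all 3 classes. The number was 114 to 357 with 1 library left out at a time. It was 373 with the high and very high libraries fitted alone, an alternative chosen after seeing the data. With 3 libraries per class, no call in this step does not show that these classes are alike. The slope was called in 41 genes when low replicate 1 was left out and in 554 when low replicate 2 was. It was called in 109 and 142 genes when high replicates 2 and 3 were left out in turn, and in 46, 18 and 26 for very high replicates 1, 2 and 3. The low-to-high step was called in 23 and 470 genes on leaving out low replicates 1 and 2, in 12 and 52 for high replicates 2 and 3, and in 87 and 56 for very high replicates 1 and 2. Of the 48 genes named by rule below that were called on the slope, 13 were called with each of the 9 libraries left out in turn. They were ACTA2, ACTG2, CHRDL2, FBXL22, KCNG1, KCNMB1, MYH11, MYLK, PDLIM3 and PLN among rising genes and ENTPD2, GCNT3 and MSLN among falling genes. The other 35 all lost the call on leaving out very high replicate 2 and again on leaving out replicate 3, and 28 did so for replicate 1. For low replicates 1, 2 and 3 the numbers lost were 26, 1 (FRZB) and 10, and for high replicates 1, 2 and 3 they were 5, 13 and 6.

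**Figure D1:**
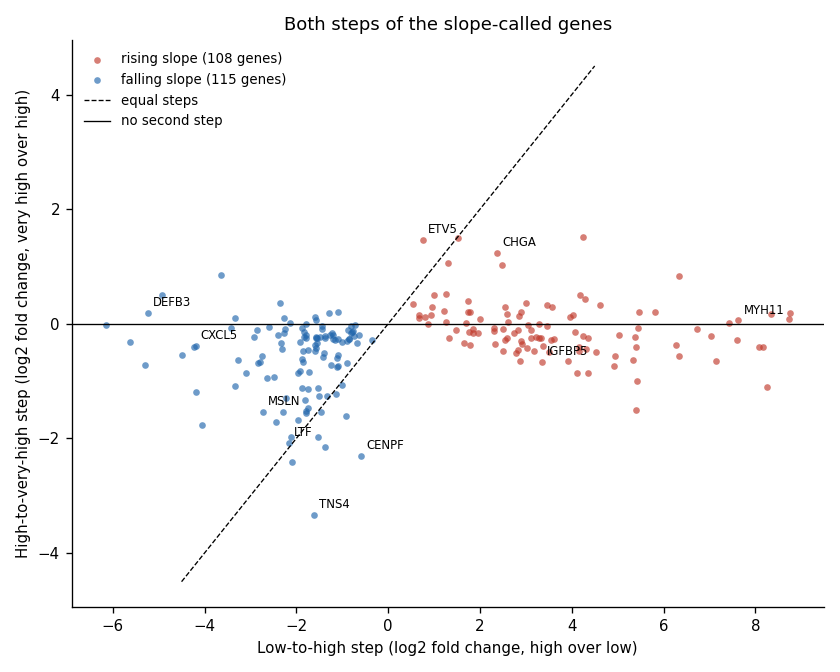
Each point is 1 of the 223 genes called on the slope, with its low-to-high step on the horizontal axis and its high-to-very-high step on the vertical axis (both log2 fold change; values of genes with few reads in a class depend on the prior count). Rising genes (red) spread along the line of no second step, with a median second step of -0.12, while falling genes (blue) reach down toward the dashed line of equal steps.

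The 108 rising genes had a median low-to-high step of 3.20 and a median high-to-very-high step of -0.12, against -0.02 and -0.01 for all tested genes. Their median step share was 1.04, with an interquartile range of 0.936 to 1.11. Of these genes 87 were first-step jumps, 6 were graded, 4 lay between both kinds, and in 11 the high class stood beyond the very high class (share above 1.2). The 115 falling genes had a median first step of -1.75, a median second step of -0.38 and a median share of 0.806. Of them 57 were first-step jumps, 36 graded, 19 in between and 2, S100A8 and LMAN1, beyond. The last falling gene, CENPF, had a share of 0.201. No called gene had a late share, from -0.2 to 0.2.

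The slope call itself favours genes whose low libraries lie apart from the rest. The counts of this paragraph therefore describe the called genes and are no separate evidence. Low and high libraries did not overlap in 216 of the 223 genes, 106 rising and 110 falling, beside 20.1% of all tested genes (10.4% rising and 9.7% falling). High and very high libraries were apart in the direction of the slope in 31 of the 223 genes, 3 rising and 28 falling. Over all tested genes they were apart in 7.06%, 3.23% rising and 3.83% falling. All 9 libraries stood in class order in 25 of the called genes, 24 falling and 1 rising, among 53 such genes (0.49% of those tested, 39 or 0.36% falling and 14 or 0.129% rising). The first-step pattern (low against both others) left the smallest residual in 180 called genes, even steps in 42 and a change at the second step only in 1, CENPF. Over all tested genes those shares were 60.5%, 19.0% and 20.4%. Jumps made up 64.6% of the called genes and graded genes 18.8%. Leaving out low replicate 1 put graded genes at 12.2%, high replicate 2 at 29.4%, and very high replicates 2 and 3 at 5.56% and 11.5%.

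**Figure D2:**
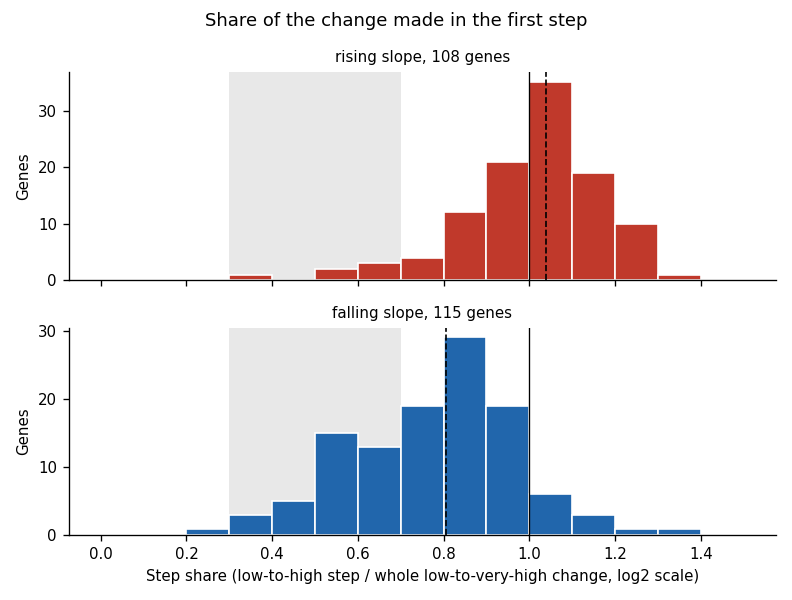
Histograms of the step share of the 108 rising and 115 falling genes, with the graded range shaded, the share of 1 as a solid line and each median dashed. Rising genes pile up around 1 (median 1.04), whereas falling genes extend into the graded range (median 0.806).

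Contractile genes led the rising side, and their whole change lay between the low and the high class. Of the 15 tested smooth muscle markers 13 rose on the slope and 13 on the low-to-high step, beside 0.998% and 0.915% of all genes. Their median first step was 4.15 and their median second step -0.28. PDLIM3, which encodes a LIM protein bound to actinin in muscle, had 3.80, 5.68 and 4.03 CPM in the low libraries, 500.4, 771 and 1059.8 CPM in the high libraries and 636, 564 and 1156 CPM in the very high libraries. The high and very high libraries covered the same range, and the high class mean was 172 times the low one. Its slope was 3.72 ± 0.24 (SE; edgeR adjusted p = 0.000798), its first step 7.42 ± 0.47 and its second 0.01 ± 0.35.

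MYH11, the myosin heavy chain of smooth muscle, stood at 2.17, 1.98 and 2.24 CPM in the low libraries, 319, 449 and 509 CPM in the high libraries and 228, 311 and 792 CPM in the very high libraries. Again only the low libraries were apart, and the first step was 7.63 ± 0.57 (edgeR adjusted p = 0.00176). MYH11 overlaps another tested gene, NDE1, and the strand setting of the counting is unknown. ACTG2, a smooth muscle actin whose reads may be shared with other actins, had 9.92, 18.3 and 20.6 CPM in the low libraries, 1652, 2616 and 5236 CPM in the high libraries and 1861, 1981 and 3965 CPM in the very high libraries. The potassium channel subunit KCNMB1 had 1, 1 and 1 reads in the low libraries, 234, 407 and 465 in the high and 206, 370 and 718 in the very high libraries. These were the 4 genes whose curvature passed (0.037% of those tested), with edgeR adjusted p of 0.00736 for PDLIM3, 0.0156 for MYH11, 0.02297 for ACTG2 and 0.0419 for KCNMB1. At an unadjusted p under 0.05 the curvature of 138 of the 223 called genes departed from even steps, as did that of 722 genes in all. Curvature was called in 0 genes without low replicate 1 or high replicate 2, in 1 without high replicate 3 or very high replicate 2, in 2 without low replicate 2, in 9 and 12 without low replicate 3 and high replicate 1, and in 13 without very high replicate 3.

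Further contractile genes had the same form. The phospholamban gene PLN, an inhibitor of the calcium pump of muscle cells, had a first step of 5.03 ± 0.53 and a second of -0.20 ± 0.42. MYLK, the kinase that switches on smooth muscle myosin, gave 5.44 ± 0.59 and -0.07 ± 0.49. The alpha actin ACTA2 had 113, 178 and 289 CPM in the low libraries, 4663, 8349 and 11642 CPM in the high libraries and 4452, 4907 and 9280.1 CPM in the very high libraries, so the low libraries were again apart. First steps of PLN, MYLK and ACTA2 each had an edgeR adjusted p of 0.00932. Of the 15 listed markers HSPB6, with 418, 451 and 285 CPM as class means, and TPM2, with 278, 2581 and 2249.9 CPM, did not pass on the slope.

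The smooth muscle markers varied together as a list over the libraries. Their mean log2 CPM was 4.43 to 5.49 in the low, 8.72 to 9.90 in the high and 8.64 to 9.66 in the very high libraries. Summed over the 15 markers, the level was 867 to 2575 CPM, 15204 to 37766 CPM and 15168 to 29209 CPM. None of the 15 was at 0 in every library of a class. In bulk tissue, more cells of a type and more RNA per cell cannot be told apart. With the list's mean as a covariate no gene was called on the slope, the steps or curvature (edgeR, 727 genes at an unadjusted p under 0.05 for the slope). That covariate itself separates the low from the other libraries, so the part of muscle content in the results that follow was not tested. Without low replicate 1, high replicate 2 or very high replicates 1, 2 or 3, the markers called were 5, 8, 6, 5 and 5.

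**Figure D3:**
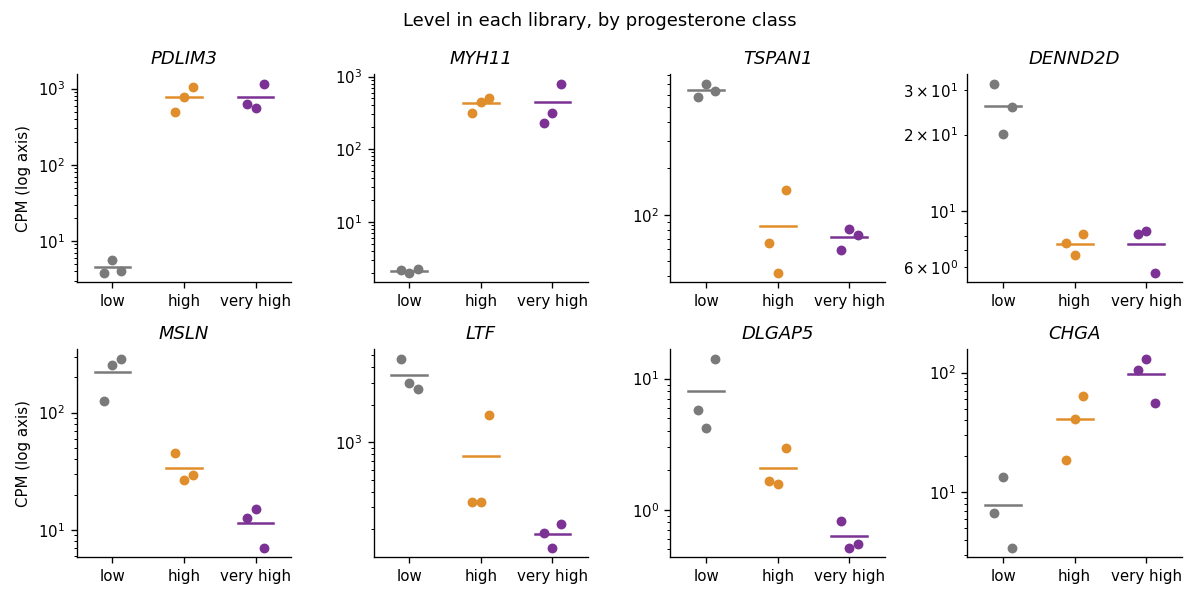
Level of 8 genes in each library (points; CPM on a log axis) with the class mean as a bar. The upper row shows first-step jumps (PDLIM3 and MYH11 rising, TSPAN1 and DENND2D falling), and in the lower row MSLN, LTF and DLGAP5 fall and CHGA rises over both steps.

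KCNG1, FBXL22 and CHRDL2 rose at the first step as well. KCNG1, a modifier subunit of voltage-gated potassium channels, had 1.49, 0.528 and 0.298 CPM in the low libraries, 43, 90.9 and 207 CPM in the high libraries and 59.2, 60.2 and 98.3 CPM in the very high libraries. The high and very high libraries overlapped. Its first step was called (edgeR adjusted p = 0.00932). FBXL22, an F-box protein, rested on 3, 12 and 3 reads in the low libraries and had 0.813, 64.6 and 50.2 CPM as class means. CHRDL2, a secreted relative of chordin, had 3, 3 and 3 reads in the low libraries against 293, 1273 and 1159 in the high and 239, 972 and 926 in the very high libraries. By edgeR none of KCNG1, FBXL22 and CHRDL2 passed on curvature (adjusted p = 0.0604, 0.0748 and 0.0748). By DESeq2 all 3 did (adjusted p = 7.6e-10, 3.44e-08 and 2.89e-09).

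Of 30 tested genes of cyclic AMP and neuropeptide signalling, 3 rose on the slope (ADCY8, ADCY5 and CHGA) and none fell, beside 0.998% and 1.06% of all genes. ADCY8, one of the adenylyl cyclases that make cyclic AMP, had 6.52, 4.75 and 2.24 CPM in the low libraries, 22.5, 49.1 and 38 CPM in the high libraries and 33.2, 32.1 and 76.8 CPM in the very high libraries. ADCY5, another of these enzymes, had 6.66, 18.2 and 8.80 CPM in the low libraries, 42.2, 106 and 104 CPM in the high libraries and 47.8, 58.9 and 97.7 CPM in the very high libraries. For both, every low library lay below every other one, and the high and very high libraries overlapped. First steps were 3.01 ± 0.51 for ADCY8 and 2.90 ± 0.50 for ADCY5 (edgeR adjusted p = 0.03104 and 0.03200), and second steps were 0.37 ± 0.46 and -0.30 ± 0.46.

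In IGFBP5 and PTGER3 the high class stood above the very high class. IGFBP5, which binds insulin-like growth factors, was the only called gene of 39 in its growth factor list, beside 2.06% of all genes. It had 4.07, 10.8 and 4.48 CPM in the low libraries, 47.3, 73 and 78.2 CPM in the high libraries and 32.5, 40.8 and 51.9 CPM in the very high libraries, so the low libraries were apart and the highest very high library overlapped the lowest high library. Its first step was 3.35 ± 0.41 (edgeR adjusted p = 0.0134) and its second -0.66 ± 0.37 (unadjusted p = 0.103). PTGER3, a receptor for prostaglandin E2, had 1.09, 1.58 and 0.895 CPM in the low libraries, 9.68, 23.9 and 40.4 CPM in the high libraries and 7.42, 10.5 and 22.8 CPM in the very high libraries. Its first step was 4.35 ± 0.66 (edgeR adjusted p = 0.02498), and its second, -0.86 ± 0.55, had an unadjusted p of 0.154. The prostaglandin and oxytocin list held 2 rising genes of 18 tested, PTGER3 and AKR1C4, beside 0.998% of all genes.

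Graded rises were few. The 6 graded rising genes were CHGA, ETV5, AKR1C4, PRG4, NAT14 and TMEM35A, of which the last 3 are named because the group is small. Chromogranin A (CHGA), a protein of secretory granules, had 6.66, 13.5 and 3.43 CPM in the low libraries, 18.5, 41 and 63.7 CPM in the high libraries and 105, 131 and 55.2 CPM in the very high libraries. Low libraries lay below all others, and very high replicate 3 fell inside the high range. Its slope was 1.81 ± 0.31 per class (edgeR adjusted p = 0.03201) and its step share 0.657. The first step was 2.38 ± 0.59 (edgeR adjusted p = 0.08999) and the second 1.24 ± 0.55 (unadjusted p = 0.0502), so neither step passed alone.

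ETV5, a transcription factor of the ETS family, had 3.94, 7.92 and 4.62 CPM in the low libraries, 13.3, 7.49 and 7.30 CPM in the high libraries and 28.4, 20.7 and 28.3 CPM in the very high libraries. Only the very high libraries were apart from the rest, and low and high overlapped. Its share was 0.343, the lowest of the rising genes, with a slope of 1.11 ± 0.18 (edgeR adjusted p = 0.0301). AKR1C4, an aldo-keto reductase of steroid metabolism, had 7.33, 16.2 and 5.52 CPM in the low libraries, 40.1, 20.1 and 12.4 CPM in the high libraries and 47.4, 50.6 and 52.9 CPM in the very high libraries. Here too the very high libraries stood above the others, and high replicate 3 lay below low replicate 2. Its slope was 1.18 ± 0.25 (edgeR adjusted p = 0.0492).

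Among PRG4, NAT14 and TMEM35A, PRG4 (lubricin, a lubricating glycoprotein) had the largest slope, 1.51 ± 0.25, with 4.25, 12.3 and 34.6 CPM as class means. NAT14 and TMEM35A changed by 0.45 ± 0.09 and 0.75 ± 0.16 per class. DKK2, a secreted modulator of WNT signalling named after its values were seen, was the 1 rising gene with all 9 libraries in class order. It rested on 0, 0 and 1 reads in the low, 5, 6 and 15 in the high and 26, 29 and 26 in the very high libraries (edgeR adjusted p of the slope = 0.0232). FRZB, a secreted WNT antagonist, had 2.06, 11.5 and 23.4 CPM as class means and a step share of 0.707. It was the only called gene of 27 WNT and HOX regulators tested, beside 2.06% of all genes.

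First-step jumps were the largest group by step share on the falling side, 57 of 115 genes. A share below 0.5 was found in 9 of the 115. Fewer falling than rising genes passed on the first step or on curvature. Falling genes also had the smaller median first step, -1.75 against 3.20, and such counts depend on step size as well as on pattern. Of the 115 falling genes 36 were also called in the low-to-high step, against 84 of the 108 rising genes. Curvature had an unadjusted p under 0.05 (edgeR) in 45 falling and 93 rising genes, and it passed in 0 falling genes. ENTPD2, an enzyme at the cell surface that splits extracellular ATP, had 45.5, 43 and 35.1 CPM in the low libraries, 13.3, 14.7 and 13.9 CPM in the high libraries and 10.5, 10.8 and 11.8 CPM in the very high libraries. All 9 libraries stood in class order, with a first step of -1.56 ± 0.18 (edgeR adjusted p = 0.0103) and a second of -0.34 ± 0.18 (unadjusted p = 0.0883). GCNT3, which builds branches on mucin sugars, had 65.9, 119 and 84.4 CPM in the low libraries, 11.2, 8.14 and 19.8 CPM in the high libraries and 7.42, 9.37 and 7.75 CPM in the very high libraries. Its low libraries were apart and the other 6 overlapped. TSPAN1, a tetraspanin of epithelial cells, had 577, 704 and 632 CPM in the low libraries, 66.1, 42.2 and 144 CPM in the high libraries and 59.7, 81.1 and 74.6 CPM in the very high libraries. The first step of TSPAN1 was -2.92 ± 0.41 (edgeR adjusted p = 0.0216), and its second, -0.23 ± 0.38, was within its error.

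SLC17A9, which loads ATP into vesicles, had a first step of -2.26 ± 0.31 and a second of 0.10 ± 0.31. DENND2D, an activator of Rab proteins, had 31.6, 20.1 and 25.7 CPM in the low libraries, 7.46, 6.70 and 8.14 CPM in the high libraries and 8.13, 8.34 and 5.71 CPM in the very high libraries. The high and very high libraries covered the same range. DEFB3, a beta defensin whose reads may be shared with other defensins, had 186, 354 and 83 reads in the low libraries, 1, 4 and 11 in the high and 11, 5 and 4 in the very high libraries. CXCL5, a chemokine that attracts neutrophils, had 166, 154 and 126 CPM in the low libraries, 13, 3.55 and 7.86 CPM in the high libraries and 12.8, 2.57 and 3.13 CPM in the very high libraries. It was 1 of 2 genes called among 32 inflammatory cytokines and chemokines tested, both falling, beside 1.06% of all genes. The first step of CXCL5 was -4.19 ± 0.65 (edgeR adjusted p = 0.0259).

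Part of the neutrophil list fell between low and high. Of 8 tested neutrophil markers 4 fell on the slope (S100A8, S100A12 and LTF among them) and 3 on the first step, beside 1.06% and 0.407% of all genes. Median steps of the 8 were -2.50 and -0.63. S100A8, a calcium-binding alarm protein of myeloid cells, had 171, 86.8 and 122 CPM in the low libraries, 3.59, 10.8 and 16 CPM in the high libraries and 23.8, 16.4 and 14.5 CPM in the very high libraries. The low libraries were apart, and the high class lay lowest. Its first step was -3.64 ± 0.50 (edgeR adjusted p = 0.0203) and its second 0.85 ± 0.47 (unadjusted p = 0.105). S100A12, of the same family, had 319.9, 377 and 582 CPM in the low libraries, 21, 56.8 and 97.9 CPM in the high libraries and 60.5, 54.5 and 48.4 CPM in the very high libraries. Its low libraries were apart too, and the other 6 overlapped.

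The 12 neutrophil markers in the table summed to 3519 to 5457 CPM in the low, 388 to 1865 CPM in the high and 242 to 322 CPM in the very high libraries, and LTF made up most of the sum. In the low class 1 of the 12 was at 0 in every library, in the high class 2 and in the very high class 1. Macrophage and dendritic markers summed to 207 to 751, 104 to 163 and 75.3 to 156 CPM, with 4 of 13 at 0 in every class. T and NK cell markers summed to 264 to 777, 132 to 318 and 126 to 221 CPM. The part of leukocyte content in these falls was not tested. No neutrophil marker was called without low replicate 1 or without very high replicate 1, 2 or 3, and the median second step was -1.0 and 0.26 without high replicates 1 and 3 and -0.37 without very high replicate 2.

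**Figure D4:**
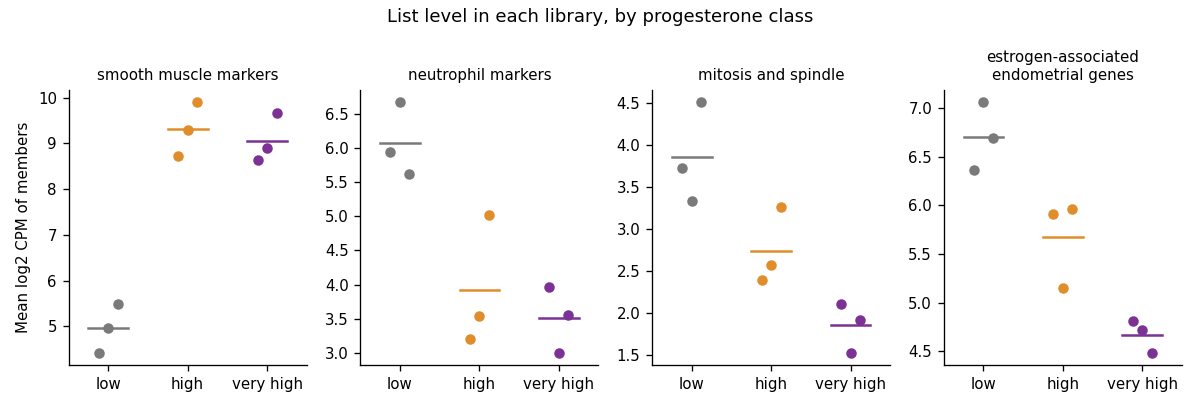
Mean log2 CPM of the tested members of 4 lists in each library (points) with the class mean as a bar. The smooth muscle and neutrophil lists separate low from the other classes, while the mitosis and estrogen-associated lists have all 9 libraries in falling class order.

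Graded falls were led by MSLN, which encodes the surface glycoprotein mesothelin. It had 126, 256 and 288 CPM in the low libraries, 45.1, 26.8 and 29.2 CPM in the high libraries and 12.6, 15 and 7.07 CPM in the very high libraries. All 9 libraries stood in class order. Its slope was -2.13 ± 0.21 per class (edgeR adjusted p = 0.00529), its first step -2.73 ± 0.38 (edgeR adjusted p = 0.0216) and its second -1.54 ± 0.38 (unadjusted p = 0.00297, edgeR adjusted p = 0.9999). Keratin 7 (KRT7), of simple epithelia, had 139, 222 and 248 CPM in the low libraries, 61.8, 30.1 and 73.8 CPM in the high libraries and 34.5, 20.02 and 21.7 CPM in the very high libraries. Low libraries were apart, and high replicate 2 fell among the very high ones. Its slope was -1.50 ± 0.19 (edgeR adjusted p = 0.0158).

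PDXK, the kinase that activates vitamin B6, had 71.4, 103 and 62.5 CPM in the low libraries, 32.6, 34.9 and 42.7 CPM in the high libraries and 26.9, 18.2 and 19.98 CPM in the very high libraries. All 9 libraries were in class order, with a slope of -0.93 ± 0.12 (edgeR adjusted p = 0.0158) and a share of 0.593. CIST1 was ordered too, with 68.7 ± 28.3, 20.5 ± 8.07 and 9.38 ± 1.21 CPM (SD, n = 3) as class means. When even steps were imposed, by a regression on rank alone in which any jump counts as spread, 4 genes passed and all fell. They were MSLN (-2.15 per class, edgeR adjusted p = 0.0170), KRT7 (-1.50, 0.0439), PDXK (-0.93, 0.0439) and CIST1 (-1.44, 0.0472).

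CD68, a lysosomal protein of macrophages, had 78.6, 49.2 and 137 CPM in the low libraries, 28.9, 22.2 and 29.1 CPM in the high libraries and 18.5, 15 and 11 CPM in the very high libraries. Every high library lay between the low and the very high ones, and its slope was -1.28 ± 0.19 (edgeR adjusted p = 0.0209). It was the 1 called gene of 9 tested macrophage and dendritic markers, beside 2.06% of all genes. TNS4, a tensin of cell adhesions, had 6.66, 7.79 and 18.2 CPM in the low libraries, 4.84, 1.05 and 4.77 CPM in the high libraries and 0.353, 0.513 and 0.136 CPM in the very high libraries. Its very high values rest on 3, 4 and 1 reads, and its share was 0.326.

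Lactoferrin (LTF), an iron-binding defence protein of neutrophil granules and uterine secretions, had 4696, 2998 and 2675 CPM in the low libraries, 332, 334 and 1659 CPM in the high libraries and 187, 142 and 222 CPM in the very high libraries. The classes did not overlap, although high replicate 3 stood far above the other 2 of its class. Its steps were -2.16 ± 0.63 and -2.08 ± 0.63, with a share of 0.509 and a slope of -2.12 ± 0.34 (edgeR adjusted p = 0.0301). HMGA1, a chromatin protein, had 96.3, 84.6 and 111 CPM in the low libraries, 53.9, 49.5 and 57.8 CPM in the high libraries and 46.6, 46.1 and 41.3 CPM in the very high libraries, again in class order, with a share of 0.762 between graded and jump.

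Genes of mitosis formed the largest listed group with a graded fall. Of 30 tested genes of mitosis and the spindle 10 fell on the slope and none rose, beside 1.06% of all genes. Their median steps were -1.46 and -0.98, and 29 of 30 had a second step below 0, though none passed in either step alone. In 7 of the 30, AURKA, BIRC5, DLGAP5, KIF11, NDC80, TPX2 and UBE2C, all 9 libraries stood in class order, as in 0.36% of all genes. AURKA was not called on the slope (edgeR adjusted p = 0.0864), and its share was 0.852. DLGAP5, a spindle protein, had 5.70, 4.22 and 14.2 CPM in the low libraries, 1.66, 1.58 and 2.95 CPM in the high libraries and 0.825, 0.513 and 0.544 CPM in the very high libraries. The very high values rest on 7, 4 and 4 reads. Its slope was -1.82 ± 0.30 (edgeR adjusted p = 0.0301) and its share 0.537.

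UBE2C, which marks cyclins for destruction, had 24.4, 17.9 and 61.3 CPM in the low libraries, 6.50, 9.06 and 14.6 CPM in the high libraries and 4.36, 1.92 and 3.94 CPM in the very high libraries. KIF11, a spindle motor, had 12.9, 6.47 and 20.9 CPM in the low libraries, 2.35, 3.02 and 6.04 CPM in the high libraries and 2.12, 1.15 and 1.22 CPM in the very high libraries. In both the highest low value was that of replicate 3. CENPF, a kinetochore protein, had 11.7, 13.6 and 24 CPM in the low libraries, 6.91, 7.75 and 18.3 CPM in the high libraries and 2.59, 1.03 and 2.99 CPM in the very high libraries. Its low and high libraries overlapped and only the very high ones were apart, with a first step of -0.58 ± 0.50 and a second of -2.31 ± 0.55 (unadjusted p = 0.00223).

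The mean log2 CPM of the mitosis list was 3.33 to 4.51 in the low, 2.40 to 3.27 in the high and 1.53 to 2.11 in the very high libraries, so that no class overlapped another. None of its members was called without low replicate 1 or without very high replicate 1, 2 or 3. The count was 20 and 4 on leaving out low replicates 2 and 3 and 2 and 6 for high replicates 2 and 3, and the median first step was -0.77 without low replicate 3. Of 30 tested genes of DNA replication 2 fell, beside 1.06% of all genes, and their median slope was -0.12. One of them, the ribonucleotide reductase subunit RRM2, had 47.6, 7.12 and 4.80 CPM as class means and a share of 0.830.

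Genes associated with estrogen in the endometrium gave the other graded list. Some of its members, such as TNS4, MSLN and KRT7, were listed after earlier results of these data were known, so its direction is no independent evidence. Of 20 tested members 6 fell on the slope (MSLN, KRT7, TNS4, LTF, TFF3 and AGR2), none rose, and 2 fell on the first step, beside 1.06%, 0.998% and 0.407% of all genes. Median steps were -1.08 and -0.93. The list's mean log2 CPM was 6.36 to 7.06, 5.15 to 5.97 and 4.49 to 4.81 in the low, high and very high libraries, in class order. Called members numbered 2 without low replicate 1 or very high replicate 1 and 1 without very high replicate 2 or 3, and the median first step was -0.40 without low replicate 2 and -0.71 without low replicate 3. The median second step was -0.61 without high replicate 1.

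Other listed genes that fell on the slope had most of their change in the first step. The matrix protease MMP7 had 44.4, 50.2 and 95 CPM in the low libraries, 9.68, 3.55 and 5.48 CPM in the high libraries and 0.942, 4.88 and 2.99 CPM in the very high libraries. SLC1A5, a glutamine carrier, had 31.8, 44.5 and 34.2 CPM in the low libraries, 11.5, 8.01 and 17.4 CPM in the high libraries and 9.31, 9.24 and 9.11 CPM in the very high libraries. BHLHE40, a repressor tied to the clock, had 51.9, 76.8 and 69.7 CPM in the low libraries, 30.00, 13.3 and 22.7 CPM in the high libraries and 19.1, 15.7 and 12.8 CPM in the very high libraries. In MMP7, SLC1A5 and BHLHE40 the low libraries were apart, the shares were 0.754, 0.792 and 0.771, and the first steps passed (edgeR adjusted p = 0.03296, 0.0391 and 0.0478). Keratin 19 (KRT19) had 339, 128 and 85.6 CPM as class means. With KRT7 it was 1 of 2 falling genes among 15 epithelial markers, beside 1.06% of all genes. Of KRT7 and KRT19, 1 was called without low replicate 3, any high replicate or very high replicate 1, and 0 without very high replicate 2 or 3. NPC2, a lysosomal cholesterol carrier, and PFKL, a phosphofructokinase of glycolysis, had smaller slopes of -0.49 ± 0.09 and -0.42 ± 0.09 (edgeR adjusted p = 0.0408 and 0.0472).

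**Figure D5:**
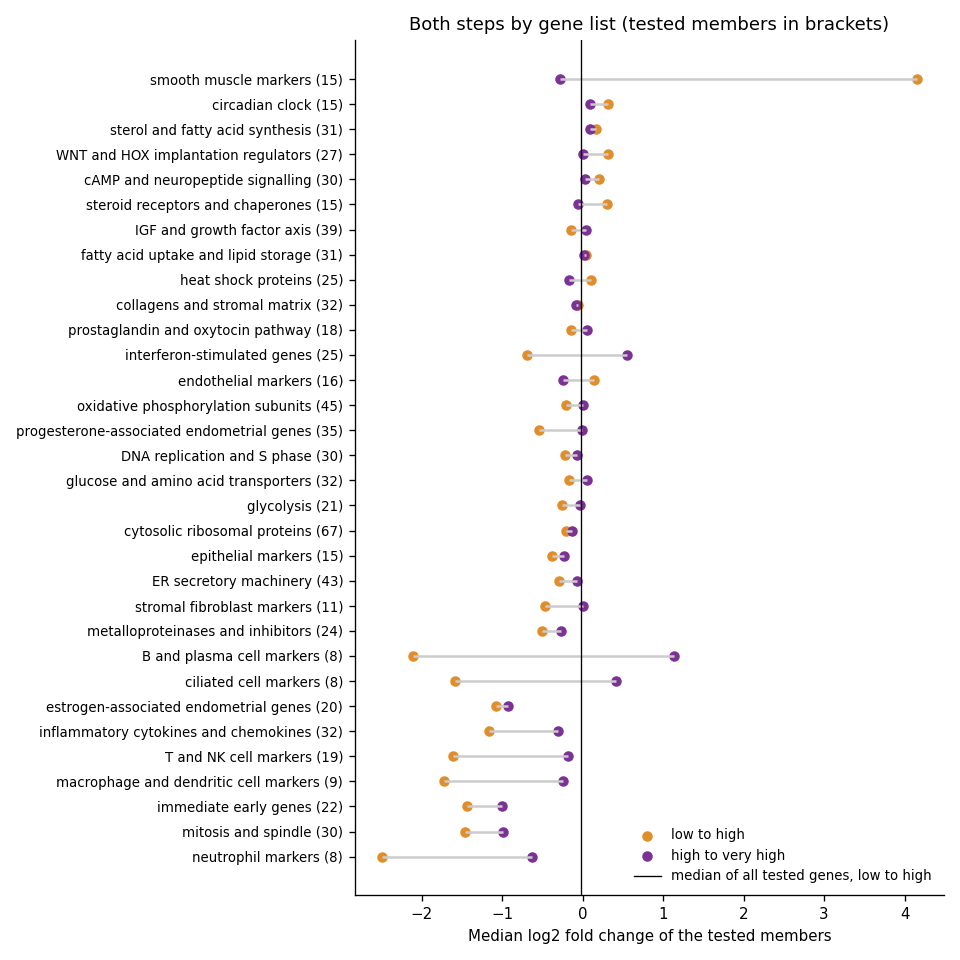
Median low-to-high step (orange) and high-to-very-high step (purple) of the tested members of each list with at least 8, on the log2 scale, with the median first step of all tested genes as a line. The smooth muscle list has a first step of 4.15 and a second of -0.28, whereas mitosis (-1.46 and -0.98) and estrogen-associated genes (-1.08 and -0.93) have both steps on 1 side.

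Several lists gave no call on the slope. Of 22 tested immediate early genes, which answer within minutes to growth signals or tissue handling, none passed, and all 22 had a second step below 0. Their median steps were -1.44 and -1.0, the median first step was 0.90 without low replicate 2 and the median second step -0.05 without high replicate 1. The 25 tested interferon-stimulated genes went the other way at the second step, with a median first step of -0.69 and a median second step of 0.55, above 0 in 24 of 25. By library, their mean log2 CPM was 5.05, 4.13 and 5.20 in the high and 5.74, 5.49 and 4.43 in the very high class. The classes overlapped, with high replicate 2 and very high replicate 3 the lowest of each. B and plasma cell markers had medians of -2.10 and 1.14 over 8 genes. No T and NK cell marker passed among 19 (medians -1.60 and -0.18). The steroid receptor list (15 tested), ribosomal proteins (67), oxidative phosphorylation subunits (45), collagens and matrix (32), sterol and fatty acid synthesis (31) and the endothelial (16) and stromal (11) markers had no called member either.

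The genes nearest to a second step did not pass. Rising, the smallest p were those of ETV5, GAA, HIST1H2AC, NR0B1 and HIST1H1D, and falling, those of CD8B, TNS4, CENPF, MSLN and SLC2A5. Their unadjusted p ran from 0.00157 (CD8B) to 0.006602 (HIST1H1D), and the smallest edgeR adjusted p of the step was 0.9999. NR0B1, an orphan nuclear receptor, had 4.48, 6.34 and 4.18 CPM in the low libraries, 3.87, 6.31 and 7.86 CPM in the high libraries and 11.8, 19.1 and 12.9 CPM in the very high libraries. Only the very high libraries stood above the rest, with steps of 0.26 ± 0.36 and 1.28 ± 0.35. CD8B, a coreceptor of T cells, had 13.6, 11.9 and 18.8 CPM in the low libraries, 16.6, 21.5 and 14.3 CPM in the high libraries and 7.07, 7.19 and 8.56 CPM in the very high libraries, with the very high libraries below all others and steps of 0.25 ± 0.26 and -1.20 ± 0.27. The fructose transporter SLC2A5 had 4.89, 1.58 and 8.21 CPM in the low libraries, 3.32, 5.52 and 29.2 CPM in the high libraries and 0.707, 0 and 1.09 CPM in the very high libraries, and high replicate 3 alone carried its high mean.

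Some of these genes had their lowest values in the high class. GAA, a lysosomal glucosidase, had 41.6, 48.4 and 34.2 CPM in the low libraries, 29.6, 24.3 and 25.7 CPM in the high libraries and 39, 52.1 and 39 CPM in the very high libraries. The high libraries lay below all the others, with steps of -0.64 ± 0.19 and 0.71 ± 0.19. The linker and core histone genes HIST1H1C, HIST1H1D and HIST1H2AC, whose copies may share reads, had the same shape. HIST1H2AC had 17, 10.3 and 16 CPM in the low libraries, 5.11, 3.94 and 4.49 CPM in the high libraries and 10.01, 10.5 and 7.75 CPM in the very high libraries, with a first step of -1.67 ± 0.29 (edgeR adjusted p = 0.0346). HIST1H1D had 19.7, 6.17 and 16.2 CPM and HIST1H1C 11.5, 3.84 and 8.50 CPM as class means. RASGEF1B, an exchange factor for small GTPases, had 52.9, 22.4 and 37.9 CPM. By edgeR none of these 5 genes passed on curvature, with adjusted p from 0.226 (HIST1H2AC) to 0.388 (GAA). DESeq2, which called curvature in 114 genes in all, called each of the 5, with adjusted p from 0.00037 (HIST1H2AC) to 0.0364 (GAA).

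The receptors of the steroid hormones themselves showed no called trend. The progesterone receptor PGR had 28.5, 34.1 and 37.4 CPM in the low libraries, 27.2, 38.6 and 33.3 CPM in the high libraries and 20.6, 25.8 and 28.4 CPM in the very high libraries. Its very high libraries lay below the low ones by a narrow margin, the high libraries overlapped both, and the slope was -0.21 ± 0.10 (edgeR adjusted p = 0.30). The estrogen receptor ESR1 had 32.1, 87.1 and 18.1 CPM in the low libraries, 61.7, 63.1 and 48.2 CPM in the high libraries and 22.1, 30.7 and 50.7 CPM in the very high libraries, with the widest spread in the low class and a slope of -0.20 ± 0.26 (edgeR adjusted p = 0.709). The oxytocin receptor OXTR had 7.06, 11.5 and 22.4 CPM in the low libraries, 39, 8.80 and 8.99 CPM in the high libraries and 2.59, 4.62 and 6.93 CPM in the very high libraries. Its very high libraries lay below all others, low and high overlapped, its slope was -0.77 ± 0.35 (edgeR adjusted p = 0.271) and its second step -2.01 ± 0.70 (unadjusted p = 0.0191).

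FKBP5, a steroid-induced partner of steroid receptors, had 189, 188 and 103 CPM in the low libraries, 295, 244 and 185 CPM in the high libraries and 294, 203 and 326 CPM in the very high libraries. Its very high libraries lay above the low ones, the high libraries overlapped both, and the slope was 0.39 ± 0.15 (edgeR adjusted p = 0.1903). PENK, the precursor of enkephalins, had 528, 1559 and 300.3 CPM in the low libraries, 823, 809.6 and 926 CPM in the high libraries and 4615, 4126 and 1167 CPM in the very high libraries. Its very high libraries stood above the high ones, while low replicate 2 exceeded very high replicate 3. The steps of PENK were 0.10 ± 0.64 and 1.95 ± 0.66 (unadjusted p of the second = 0.0159), and the slope was 1.03 ± 0.33 (edgeR adjusted p = 0.138). Of the 35 tested progesterone-associated genes, a list partly drawn from earlier results of these data, 1 rose on the slope (CHGA) and 2 fell (LTF and NPC2), beside 0.998% and 1.06% of all genes, with median steps of -0.54 and -0.0029.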

How the data were processed

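RNA of endometrial biopsies was sequenced, per the labels' protocols, from stranded, poly(A)-selected libraries that were pooled in equal amounts and read as pairs on 1 instrument. The submitters' processing notes list the builds UMD3.1 and bosTau8 and the tools FastQC 0.11.2 and Trimmomatic 0.32. Not given in the sources used here are aligner, counter, strand setting and annotation. The authors deposited raw counts, whole numbers of reads per gene symbol, 1 column per sample. Of these columns 9 were used and the 3 of the very low class left out. Of 13930 symbols 1450 had a count of 0 in all 9 libraries. Totals were 6952815 to 8379489, which sets the counting precision.

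From the counts, edgeR 4.0.16 (R 4.3.3) was run on genes kept by filterByExpr (count minimum 10), with TMM scaling (factors 0.829 to 1.08) and a quasi-likelihood fit of 3 class means. The biological coefficient of variation was 33.7%, with 6 residual degrees of freedom. Slope, steps and curvature were contrasts of that 1 fit, so both steps share the high libraries and no relation between them is given as a result. The Benjamini-Hochberg adjustment ran over all tested genes, with a threshold of 0.05. CPM and log2 CPM (prior count 2) use the TMM scaling. Standard errors are the log2 difference over the root of F. The level of a list averages log2 CPM over its tested members. No 2 replicates agreed within counting noise (chi-square over degrees of freedom 21.8 to 138).

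Named by rule were PGR, ESR1, OXTR, FKBP5, PENK and CHGA, then, where mean log2 CPM reached 1 and without symbols that are only a locus number, the 6 smallest p per direction on the slope, up to 6 per direction among graded genes with all libraries in class order and among first-step jumps, up to 3 called members per list and, where fewer than 10 passed (second step and turns at the high class), the 5 smallest p per direction. Genes outside it are marked as chosen after their values were seen or belong to a small group named in full. The classes followed, the lists and the rule were chosen with earlier results of these data known, and the estrogen-associated and progesterone-associated lists hold genes picked from them. DESeq2 1.42.0 and limma-voom (limma 3.58.1) were alternatives, beside other scaling, filters, depth, library sets, covariates, class scores and share limits. In the RefSeq table of assembly ARS-UCD2.0, 13492 symbols were found by name, 345 by synonym and 93 not at all. Of 61 genes named by rule 17 overlap another gene there and 1, MYH11, a tested one. Coordinates are left out because that assembly is not the authors' build. Some genes that the rule names are counted but not reported here by name.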

Additional observations from a re-analysis of the deposited data

How the results depend on the processing

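The absence of calls in the high-to-very-high step held in each alternative that gives this step, with each library left out as well. Regression on rank alone and spacing by log2 bounds give no value for it. With 3 libraries per class, an absence of calls cannot show that the high and very high classes are alike. Counts of the slope, first step and curvature moved. With DESeq2 they were 1094 (all 223 genes included), 940 and 114, with limma-voom 50, 61 and 2, and with all 12 libraries in the fit or with the smooth muscle list as a covariate 0, 0 and 0 (slope at an unadjusted p under 0.05: 1304 and 727). Regression on rank alone called 4 slopes. Spacing the classes by the log2 of their labelled bounds, with the low bound read as if in ng/ml, called 25 slopes and 59 curvatures. Other size factors, no filter or equal depth gave 208 to 229 slopes. Leaving out 1 library at a time gave 18 to 554 slopes, 12 to 470 first steps, 0 to 13 curvatures, 50.5% to 88.9% jumps, 5.56% to 29.4% graded genes and median step shares of 0.959 to 1.14 (rising) and 0.714 to 0.929 (falling). On linear CPM 8.52% were graded, and with narrower limits of the share 36.3% were jumps and 9.87% graded. Fitting each step from its own 6 libraries, an alternative chosen after seeing the data, called 26 first steps. The cause of these differences was not tested. The replicate block gave 308 slopes (181 of the 223 genes included), 247 first steps and 39 curvatures. Whether replicate numbers pair the samples is not given. Deviations of same-numbered libraries from their class means correlated at -0.21 to 0.19, over 0.1 in 2 of 9 pairs. With 3 libraries per class these correlations cannot decide it. Among named genes called on the slope, only PTGER3 (-0.98), ADCY5 (-0.55) and FRZB (-0.43) changed sign, with the smooth muscle covariate. Among named genes that were not called, the slope of HIST1H1D ran from -0.29 to 0.0099 with libraries left out in turn, that of ESR1 from -0.40 to 0.23 and that of GAA from -0.042 to 0.098, where the value also changed sign without low replicate 3 (-0.022). HIST1H1D went to 0.14 with the covariate and 0.069 with log2 bounds, HIST1H1C to 0.018 with log2 bounds, and HIST1H2AC and RASGEF1B to 0.12 and 0.11 with the covariate. Values of a few reads per library in a class limit DKK2, KCNMB1, CHRDL2, TNS4, FBXL22, DEFB3, DLGAP5, KCNG1 and PTGER3, among others. In low replicates 1, 2 and 3 KCNG1 had 11, 4 and 2 reads and PTGER3 had 8, 12 and 6.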

Other observations

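The genes of this paragraph were chosen after their values were seen, and all were called on the slope (edgeR adjusted p under 0.05) unless said. Among the first-step rises were secreted WNT amplifiers, with RSPO1 at 0.478, 62.8 and 54.6 CPM and RSPO3 at 2.81, 118 and 59.2 CPM as means of the low, high and very high classes, and the lymphatic genes CCL21 (0.0453, 19 and 8.81 CPM) and MMRN1 (0.140, 12.6 and 8.46 CPM). The cytokine IL17B stood at 0.372, 40.8 and 38.3 CPM, the purine receptor P2RX1 at 0.180, 8.89 and 10.2 CPM and the gap junction protein GJC1 at 4.20, 36.3 and 33.9 CPM. Low-class values of RSPO1, CCL21, MMRN1, IL17B and P2RX1 rest on few reads. Beside the 2 lymphatic genes, 0 of 16 tested endothelial markers were called on the slope, with a median slope of -0.07. On the falling side, PIGR, which carries antibodies across epithelium, had 1619, 837 and 655 CPM in the low libraries, 79.2, 83.4 and 203 CPM in the high libraries and 95.6, 58.5 and 47.3 CPM in the very high libraries. The low libraries were apart and the other 6 overlapped. TCN1, a vitamin B12 binder, stood at 307, 16.4 and 12.4 CPM, and LBP, which binds bacterial lipopolysaccharide, at 55.2, 3.31 and 0.944 CPM. TFF3, a trefoil peptide of mucus, had 188, 286 and 189.6 CPM in the low libraries, 45.1, 35.9 and 150.1 CPM in the high libraries and 25.7, 13.3 and 19.6 CPM in the very high libraries. Its libraries stood in class order, with a step share of 0.435. AGR2, a folding helper of mucins, had 409, 75.2 and 23 CPM and a share of 0.588. LCP1, SRGN and SELPLG, which leukocytes express, fell too. Called were 0 of 19 T and NK cell, 0 of 8 B and plasma cell and 1 of 9 macrophage and dendritic markers, beside 2.06% of all genes. In these 3 lists 19, 7 and 9 members had a slope below 0. An unadjusted p under 0.05 for the slope (edgeR) was found in 17, 3 and 9, beside 2111 of all 10820 tested genes. LCP1 stood at 130.0, 43.5 and 45.4 CPM, SRGN at 391, 89.4 and 89.99 CPM and SELPLG at 45.9, 9.04 and 7.17 CPM. M-SAA3.2, an acute phase protein with near copies that may share reads, stood at 8919, 1824 and 628 CPM.

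The 3 very low libraries entered no test here, and their position on the called genes differed between them. Of the 108 rising genes, 71 lay beyond the low mean (away from the very high mean) in very low replicate 2 and 28 in replicate 3, but 10 in replicate 1, where 73 exceeded the very high mean. Of the 115 falling genes, 98, 35 and 5 lay beyond the low mean in replicates 2, 3 and 1, and 42 lay beyond the very high mean in replicate 1. The mean of the 3 lay between the low and very high means in 92 rising and 93 falling genes. Contractile genes differed widely within the very low class. In its replicates 1, 2 and 3, with scaling over all 12 libraries, MYH11 stood at 1418, 2.04 and 3.11 CPM. ACTA2 stood at 25927, 118 and 405 CPM. The level of these genes thus did not follow the progesterone class in very low replicate 1.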
